A study of Mus musculus with 3 samples.

Results

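Nuclear factor erythroid 2-related factor 2 (NRF2, encoded by Nfe2l2) and 9 other genes of the oxidative stress response were followed in single cells of the injured and uninjured neonatal mouse heart. The 10 genes were given as a list by function, and all 10 were found among the 54752 gene symbols of the count tables. They comprise the regulators Nfe2l2 and Sqstm1, the glutathione and cystine genes Gclc, Gclm and Slc7a11, the thioredoxin and peroxiredoxin genes Txn1, Txnrd1, Prdx1 and Srxn1, and the quinone reductase gene Nqo1.

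In unstressed cells the NRF2 protein is bound by KEAP1 and degraded, and oxidants or electrophiles release it to enter the nucleus. There it pairs with small MAF proteins on antioxidant response elements and raises the transcription of genes that make glutathione, reduce thioredoxin and detoxify quinones. NRF2 is regulated largely at the level of protein stability, so the mRNA of Nfe2l2 need not follow its activity. Macrophages and neutrophils that enter damaged heart muscle both produce oxidants and draw on these genes to withstand them.

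The cells were CD45+F4/80+7AAD- cells sorted from hearts of C57BL/6 mice at P13, 3 days after surgery at P10. The cells came from the infarct and border zones, with several hearts pooled per zone, and there was 1 library per group. Sham-vehicle mice had the operation without ligation, MI-vehicle mice had the left anterior descending artery ligated, and MI-SB225002 mice had the ligation and were given SB225002, an antagonist of the chemokine receptor CXCR2, in place of vehicle. The study's methods for isolating macrophages name sodium butyrate, an inhibitor of histone deacetylases, in the buffers for mincing, washing and staining, and those for the single-cell RNA libraries do not say whether it was used there. With 1 library per group no difference could be tested against animals. The intervals given below are exact 95% intervals that cover counting error only, and the difference between 2 libraries cannot be told apart from the difference between their conditions.

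Of 13684 barcodes, 10550 cells passed the limits of 500 to 30000 unique molecular identifiers (UMIs, each marking 1 captured mRNA molecule), 500 to 5000 genes and a mitochondrial share under 10%. The kept cells numbered 2352, 3454 and 4744 in the Sham-vehicle, MI-vehicle and MI-SB225002 libraries, with median depths of 8520, 6400 and 5654 UMIs. The filter removed 30.6% of the Sham-vehicle barcodes, 23.4% of the MI-vehicle barcodes and 18.0% of the MI-SB225002 barcodes. Between 1260 and 1844 barcodes were found in each pair of libraries, and cells with the same barcode were no more alike in expression than cells with different barcodes of the same libraries (median correlations of 0.0076 to 0.032 against 0.010 to 0.033). Values without the shared barcodes are given wherever they alter a count.

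Cells were grouped by marker genes into gates. The largest was the C1q+ macrophage gate with 7277 cells (2020, 2336 and 2921 in the 3 libraries), which carries the complement genes C1qa, C1qb and C1qc. A gate of 351 C1q-low cells with Spp1 or Arg1 held 0, 94 and 257 cells. The study reports higher enhancer activity for both genes in a macrophage cluster it calls infiltrating, and the origin of the cells was not traced here. The Ly6c-high monocyte gate held 583 cells, the Ace+ Ly6c-low monocyte gate 70, the gate of cells high in MHC class II and low in C1q 55 and the neutrophil gate 274. Although the sort aimed at macrophages and monocytes, 457 cells carried fibroblast markers, 284 endothelial markers and 114 B cell markers. After the MHC class II genes, the leading genes of the gate high in MHC class II included Ccl22, Ccr7 and Fscn1, which are known from migratory dendritic cells. A further 594 cells with markers of more than 1 lineage and 450 without an assignment were kept apart.

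Levels are given as CPM, the UMIs of a gene in all cells of a gate and library per 1000000 UMIs of those cells. They are not divided by gene length, so levels are compared between gates and libraries and not between genes.

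The promoters of the members are described first, because the antioxidant response element is what ties the list to NRF2. RefSeq promoters of GRCm38.p6, from 250 bases before the transcription start to 50 after it, were searched on both strands for the core TGACNNNGC. The core lay in 12.4% of 32851 promoters. Of the 9 members with a promoter in the table, 5 held it, namely Nfe2l2, Gclm, Txnrd1, Prdx1 and Srxn1. Gclc had no entry. Sequence beyond this window was not searched, so a member without a core here could hold one farther from the start. The 4 cores that lay upstream of the start are printed here on the strand of the gene, in capitals, with the flanking bases in lower case.
Nfe2l2: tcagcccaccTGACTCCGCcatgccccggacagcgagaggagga
Gclm: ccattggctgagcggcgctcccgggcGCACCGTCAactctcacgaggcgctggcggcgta
Txnrd1: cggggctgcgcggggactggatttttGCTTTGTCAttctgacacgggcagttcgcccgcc
Prdx1: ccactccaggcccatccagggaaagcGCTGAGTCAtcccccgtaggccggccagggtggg
In Nfe2l2 (chr2:75704870-75704913, minus strand) the core began at position -240 from the start and read TGACTCCGC. In Gclm (chr3:122245397-122245456, plus strand), Txnrd1 (chr10:82859088-82859147, plus strand) and Prdx1 (chr4:116685440-116685499, plus strand) it lay on the opposite strand, from -134, -92 and -133. Txnrd1 had 3 promoters in the table and 1 of them held the core. The core of Prdx1 overlapped the AP-1 sequence TGACTCA, which was present in 5.2% of all promoters. A match describes letters only, and binding was not measured.

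Across the gates, the C1q-low Spp1+ or Arg1+ cells carried the highest level of 6 of the 10 members when libraries were pooled. These were Sqstm1 (157 CPM), Gclm (84.0 CPM), Txn1 (1639 CPM), Txnrd1 (133 CPM), Prdx1 (2601 CPM) and Srxn1 (49.5 CPM). For Sqstm1 and Srxn1 the interval overlapped that of the next gate. The share of all genes with their highest or lowest level in a given gate was not taken. Such counts of members therefore have no background here. Since no Sham-vehicle cell fell into this gate, its pooled level comes from the 2 infarct libraries, and the comparison with C1q+ cells was therefore also made within each library.

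**Figure D1:**
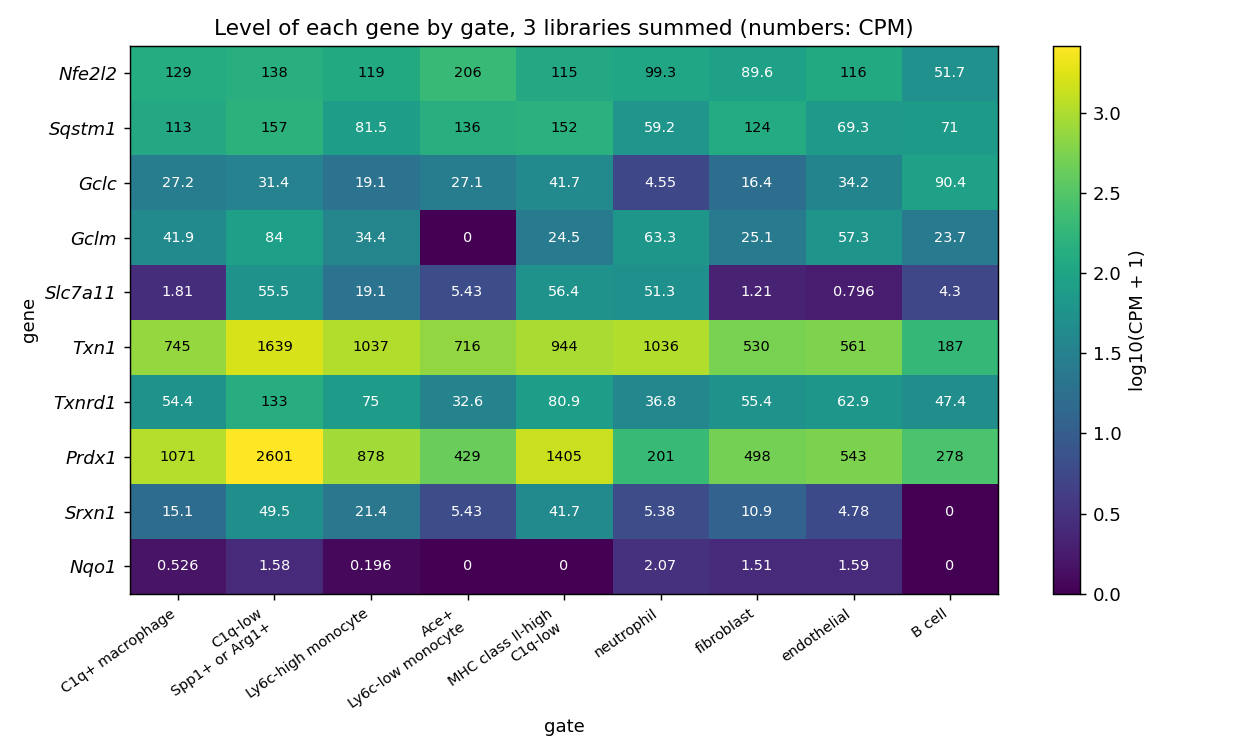
Level of the 10 genes (rows) in 9 gates of at least 50 cells (columns), with the 3 libraries pooled, each square labelled with its CPM and coloured by log10 of CPM + 1. The C1q-low Spp1+ or Arg1+ column is the highest for 6 genes, and the neutrophil column is the lowest for Sqstm1, Gclc and Prdx1.

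Within the MI-vehicle library, Srxn1 stood 2.72-fold (1.86 to 3.86) higher in the C1q-low Spp1+ or Arg1+ gate than in the C1q+ gate. SRXN1 is sulfiredoxin, which repairs overoxidised peroxiredoxins. In the MI-SB225002 library the same ratio was 3.02 (2.43 to 3.72). Txnrd1, the cytosolic thioredoxin reductase, stood 2.45-fold (2.01 to 2.98) and 2.13-fold (1.88 to 2.42) higher in the 2 libraries. Txn1, the thioredoxin it reduces, was 2.55-fold (2.42 to 2.68) and 1.75-fold (1.69 to 1.82) higher. Prdx1, a peroxiredoxin that reduces hydrogen peroxide, was 1.66-fold (1.58 to 1.75) and 2.25-fold (2.19 to 2.31) higher. In both libraries these 4 genes of the thioredoxin branch were thus higher in the C1q-low cells. The share of all genes that were higher there than in C1q+ cells was not taken. Nfe2l2 itself was not set apart in that way, with ratios of 0.952 (0.797 to 1.13) and 1.16 (1.02 to 1.31).

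Neutrophils had the lowest pooled level of 3 members. Prdx1 reached 80.4, 174 and 277 CPM in the neutrophils of the Sham-vehicle, MI-vehicle and MI-SB225002 libraries, against 865, 942 and 1383 CPM in the C1q+ gate, a ratio of 0.0930 (0.0601 to 0.137), 0.185 (0.160 to 0.212) and 0.200 (0.176 to 0.226). Txn1 did not share this pattern and was higher in neutrophils than in C1q+ cells in each library, by 1.79-fold (1.60 to 1.98), 1.47-fold (1.38 to 1.56) and 1.18-fold (1.10 to 1.26). The lowest level of Nfe2l2, Txn1 and Srxn1 was in B cells, where Srxn1 had 0 UMIs in all 3 libraries. For Gclm, Txnrd1 and Nqo1 the lowest level was in the Ace+ monocytes, whose 70 cells gave 0 UMIs of Gclm and of Nqo1, which allows up to 20.02 CPM of each. Nqo1 was also at 0 UMIs in B cells and in the gate high in MHC class II. The highest level of Nfe2l2 was in the Ace+ monocytes (206 CPM, 146 to 283), although the interval overlapped that of the C1q-low Spp1+ or Arg1+ cells (138 CPM, 126 to 152).

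One member, Gclc, had its highest level outside the myeloid gates. Gclc encodes the catalytic subunit of glutamate-cysteine ligase, the enzyme that limits glutathione synthesis, and Gclm encodes its modifier subunit, which makes the enzyme more efficient. In B cells Gclc reached 101 CPM (13 UMIs) in the Sham-vehicle, 111 CPM (26 UMIs) in the MI-vehicle and 29.6 CPM (3 UMIs) in the MI-SB225002 library. In C1q+ cells it was 30.6, 24.2 and 26.4 CPM. The B cells were above the C1q+ cells by 3.31-fold (1.75 to 5.70) and 4.58-fold (2.96 to 6.81) in the first and second of these libraries, while in the third the interval spanned 1 (1.12, 0.231 to 3.30). The pooled B cell interval (65.2 to 122 CPM) also overlapped that of the gate high in MHC class II (24.3 to 66.7 CPM). Under other processing choices 1 to 3 members were highest outside the myeloid gates.

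The balance of the 2 ligase subunits differed widely between cell types. In neutrophils Gclm made up 95%, 91.8% and 94.4% of the Gclm and Gclc UMIs in the 3 libraries, and 93.3% (88.3 to 96.6) when pooled, with 153 Gclm UMIs beside 11 of Gclc. In B cells the share was 18.8%, 21.2% and 25%, and 20.8% (10.8 to 34.1) when pooled, with 11 Gclm UMIs beside 42 of Gclc. In C1q+ cells it was 55.2%, 61.1% and 65.2%, and fibroblasts (60.6%), endothelial cells (62.6%) and Ly6c-high monocytes (64.3%) lay in the same range when pooled. Every library thus placed the C1q+ gate between the neutrophils and the B cells, although the B cell share of the MI-SB225002 library rests on 4 UMIs and has an interval of 0.631% to 80.6%. The C1q-low Spp1+ or Arg1+ cells stood at 77.0% and 71.7% in the MI-vehicle and MI-SB225002 libraries. The share is not corrected for the lengths of the 2 mRNAs.

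**Figure D2:**
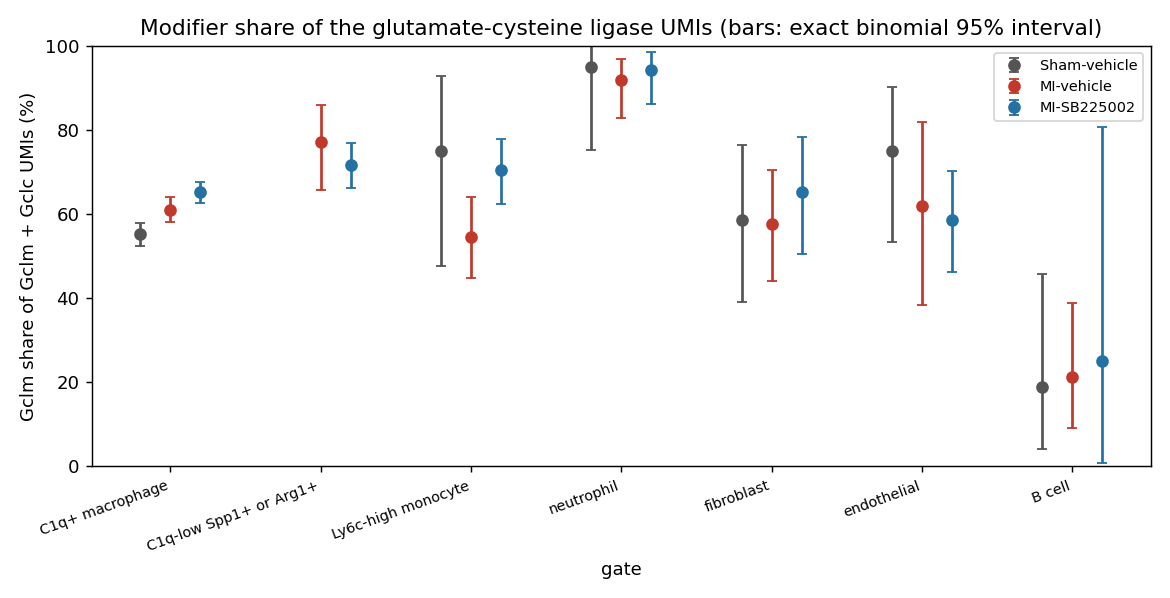
Share of Gclm among the Gclm and Gclc UMIs (y axis, percent) in 7 gates (x axis), 1 point per library with its exact binomial 95% interval. Neutrophils lie above 90% and B cells at 25% or below in each library, with the C1q+ macrophages between 55.2% and 65.2%, and the MI-SB225002 B cells have the widest interval.

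The first comparison asked how infarction alone altered these genes, MI-vehicle against Sham-vehicle. In C1q+ macrophages most members lay close to their Sham-vehicle level. Past 1.5-fold, with at least 10 UMIs over both libraries, 1 of 10 members was higher (Slc7a11) and 1 was lower (Nqo1), where 10.3% of all 15667 genes tested were higher and 7.07% were lower by the same rule. Both members rest on few UMIs. Slc7a11 had 3 UMIs (0.160 CPM) in the Sham-vehicle and 11 (0.650 CPM) in the MI-vehicle library, a ratio of 4.07 with an interval of 1.07 to 22.7. Nqo1, the quinone reductase often used as a readout of NRF2, had 12 and 7 UMIs (0.639 and 0.414 CPM), a ratio of 0.647 whose interval of 0.216 to 1.78 spanned 1. The higher count was 0 under 4 of the alternative choices and the lower count 0 under 5.

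The members with more UMIs differed less. Sqstm1, whose product p62 binds KEAP1 and carries cargo to autophagy, was at 117 and 131 CPM, a ratio of 1.12 (1.05 to 1.19). Nfe2l2 was at 127 and 141 CPM (1.10, 1.04 to 1.17), Prdx1 at 865 and 942 CPM (1.09, 1.06 to 1.11) and Txn1 at 636 and 663 CPM (1.04, 1.01 to 1.07). Gclc was lower, at 30.6 CPM in the Sham-vehicle and 24.2 CPM in the MI-vehicle library (0.789, 0.694 to 0.898). Gclm (37.6 and 37.9 CPM), Txnrd1 (48.9 and 47.1 CPM) and Srxn1 (13.1 CPM in both) had intervals of the ratio that spanned 1. In all, the interval lay above 1 for 5 members and below 1 for 1, beside 12.6% and 17.3% of all genes. An interval narrows as a gene gains UMIs, so such counts depend on UMIs, and genes of like UMIs were not compared. The median log2 ratio of the members was 0.034 against -0.042 over all genes tested.

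**Figure D3:**
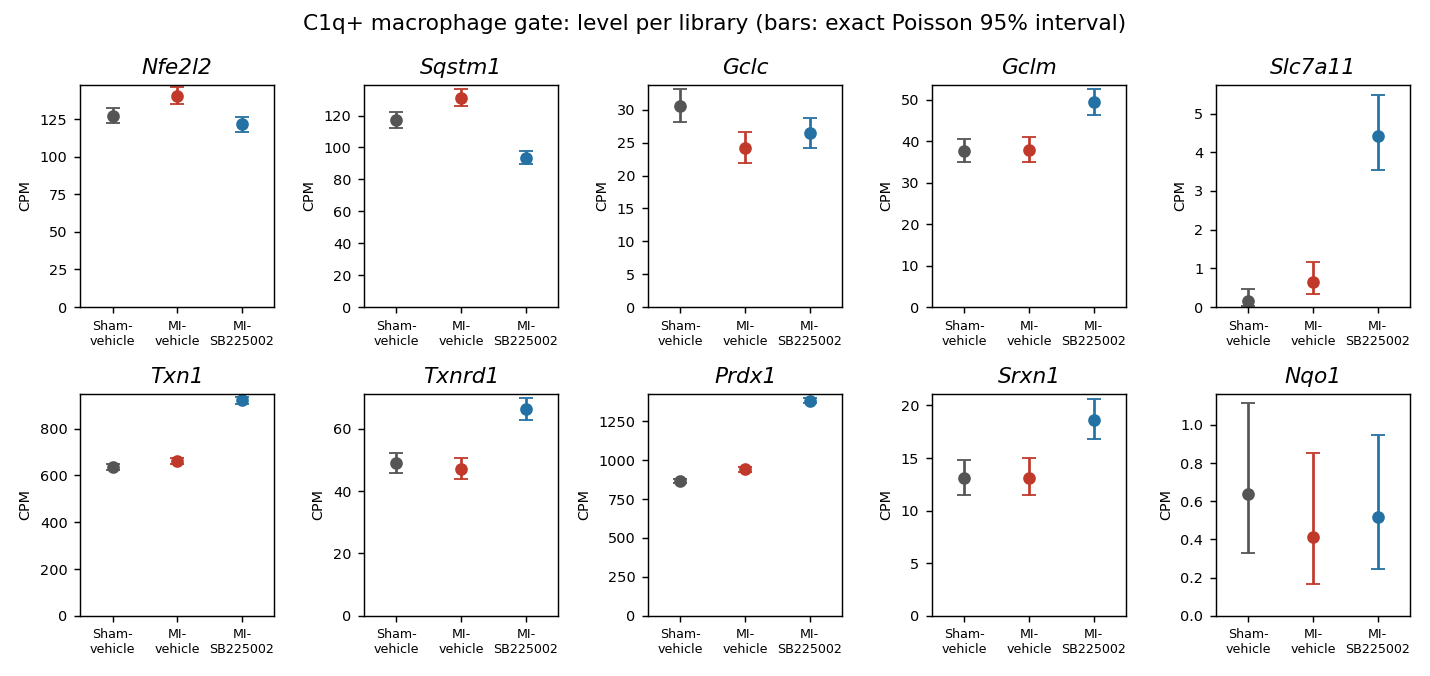
Level of each member in the C1q+ macrophage gate (y axes, CPM, from 0, each panel with its own range) in the 3 libraries (x axis), with exact Poisson 95% intervals. Gclm, Slc7a11, Txn1, Txnrd1, Prdx1 and Srxn1 are highest in the MI-SB225002 library, and Sqstm1 is lowest there.

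The second comparison asked what CXCR2 antagonism altered after infarction, MI-SB225002 against MI-vehicle. It shares the MI-vehicle library with the first, so the ratios of both are given side by side and no relation between them is drawn. In the C1q+ gate 6 of the 8 members other than the regulators were higher in the MI-SB225002 library by their counting interval, Gclc and Nqo1 had intervals that spanned 1, and both regulators were lower. Past 1.5-fold, 1 of 10 members was higher (Slc7a11) and 0 were lower, beside 7.32% and 12.4% of 15652 genes. The alternatives gave a count of 1 to 3 members higher. The interval lay above 1 for 6 members and below 1 for 2, beside 18.5% and 23.7% of all genes, and the median log2 ratio was 0.430 for the members against -0.058 over all genes. As before, the counts by interval depend on the UMIs of each gene, and genes of like UMIs were not compared.

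Among the thioredoxin genes, Prdx1 was at 865, 942 and 1383 CPM in the Sham-vehicle, MI-vehicle and MI-SB225002 libraries, so that MI-SB225002 stood 1.47-fold (1.44 to 1.5) above MI-vehicle. Txn1 was at 636, 663 and 921 CPM (1.39-fold, 1.36 to 1.42), Txnrd1 at 48.9, 47.1 and 66.2 CPM (1.41-fold, 1.29 to 1.54) and Srxn1 at 13.1, 13.1 and 18.6 CPM (1.42-fold, 1.20 to 1.69). The 4 ratios lay between 1.39 and 1.47. Of the glutathione genes, Gclm was at 37.6, 37.9 and 49.5 CPM (1.31-fold, 1.18 to 1.45), whereas Gclc was at 30.6, 24.2 and 26.4 CPM with an interval that spanned 1 (1.09, 0.958 to 1.25).

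The regulators went the other way. Sqstm1 was at 117, 131 and 93.7 CPM, so that MI-SB225002 was at 0.714 (0.671 to 0.760) of MI-vehicle and also below Sham-vehicle. Nfe2l2 was at 127, 141 and 121 CPM, a ratio of 0.864 (0.816 to 0.915). Nqo1 remained at the edge of detection, with 12, 7 and 10 UMIs in 2020, 2336 and 2921 cells, and its ratio of 1.25 had an interval of 0.428 to 3.85. At this depth a difference in Nqo1 was not detectable.

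The makeup of the C1q+ gate differed between the libraries. Cells with the resident markers Lyve1 and Folr2 made up 44.2%, 33.4% and 17.6% of it, and cells with Spp1 and Gpnmb 1.73%, 6.38% and 14.8%. The ratios were therefore taken within these groups as well. Prdx1 in MI-SB225002 over MI-vehicle was 1.37 (1.31 to 1.43) in the Lyve1+ Folr2+ cells, 1.59 (1.51 to 1.67) in the Spp1+ Gpnmb+ cells, 1.39 (1.31 to 1.49) in the Arg1+ cells and 1.28 (1.24 to 1.32) in the remaining cells. Sqstm1 was lower in each of the same groups, at 0.723 (0.627 to 0.831), 0.594 (0.507 to 0.697), 0.729 (0.60 to 0.890) and 0.688 (0.627 to 0.754). Txn1 was higher in the Lyve1+ Folr2+ (1.34, 1.28 to 1.41), Spp1+ Gpnmb+ (1.33, 1.25 to 1.41) and remaining cells (1.27, 1.23 to 1.32), and in Arg1+ cells its interval spanned 1 (1.03, 0.971 to 1.10). Intervals spanned 1 for Gclm in the Spp1+ Gpnmb+ (1.261, 0.953 to 1.687) and remaining cells (1.096, 0.942 to 1.275). They did for Srxn1 in the Spp1+ Gpnmb+ (0.98, 0.653 to 1.498) and Arg1+ cells (1.116, 0.701 to 1.831). They also did for Txnrd1 in the Arg1+ cells (1.121, 0.856 to 1.481) and Nfe2l2 in the Spp1+ Gpnmb+ cells (1.002, 0.846 to 1.191). In the other groups Gclm, Srxn1 and Txnrd1 were higher and Nfe2l2 was lower. The higher Prdx1 and lower Sqstm1 were thus measured in each of these 4 groups.

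The Spp1+ Gpnmb+ cells had one further pattern. In the Sham-vehicle library they were few, 35 cells, yet Prdx1 stood at 1905 CPM in them, against 788 CPM in the remaining C1q+ cells (2.42-fold, 2.26 to 2.58). In the MI-vehicle library the same kind of cell, now 149 cells, had 1265 CPM of Prdx1, which is 0.664 (0.615 to 0.718) of the Sham-vehicle level. Gclm (89.4 and 42.9 CPM, 0.480, 0.325 to 0.714) and Txnrd1 (99.1 and 48.6 CPM, 0.490, 0.340 to 0.714) were also lower in the MI-vehicle than in the Sham-vehicle library in these cells, as were Sqstm1 (262 and 172 CPM, 0.653, 0.529 to 0.810) and Gclc (34.98 and 15.4 CPM, 0.439, 0.228 to 0.858). None of these 5 genes had an interval that reached 1. Of the 8 members with enough UMIs in these cells, the 5 were past 1.5-fold lower and 0 were higher, beside 16.4% and 15.6% of all genes there. In the MI-SB225002 library Prdx1 was at 2008 CPM, Txnrd1 at 78.1 CPM and Sqstm1 at 102 CPM in 432 cells of this kind. Gclm was at 54.05 CPM and Gclc at 21.15 CPM there, and their ratios to MI-vehicle had intervals that spanned 1.

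Outside the C1q+ gate, Prdx1 was also higher in the MI-SB225002 than in the MI-vehicle library in 7 of the 8 other gates of at least 50 cells. In the C1q-low Spp1+ or Arg1+ gate it was at 1566 and 3109 CPM (1.99-fold, 1.88 to 2.10). In Ly6c-high monocytes it was at 637, 593 and 1114 CPM in the 3 libraries (1.88-fold over MI-vehicle, 1.76 to 2.01). In neutrophils the ratio was 1.59 (1.32 to 1.92), in fibroblasts 1.43 (1.29 to 1.59), in endothelial cells 1.52 (1.24 to 1.88) and in B cells 1.98 (1.31 to 2.98). The Ace+ monocytes, at 333 and 637 CPM, had a ratio of 1.92 (1.16 to 3.18), and the gate high in MHC class II, at 1551 and 1321 CPM, had 0.852 (0.717 to 1.01). The T/NK cells, 14 in the MI-vehicle and 8 in the MI-SB225002 library, had 62 and 5 UMIs of Prdx1 and an interval that spanned 1 (0.533, 0.167 to 1.31).

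The other members differed by cell type. In the C1q-low Spp1+ or Arg1+ gate, 4 of the 9 members with enough UMIs were past 1.5-fold higher and 0 were lower, beside 16.4% and 14.6% of all genes there. Besides Prdx1 these were Gclc (16.4 and 38.8 CPM, 2.37-fold, 1.39 to 4.26), Gclm (54.9 and 98.3 CPM, 1.79-fold, 1.33 to 2.44) and Srxn1 (35.6 and 56.2 CPM, 1.58-fold, 1.08 to 2.35). Sqstm1, lower in C1q+ cells, stood at 118 and 176 CPM in this gate (1.48-fold, 1.21 to 1.83). Txn1, at 1688 and 1614 CPM (0.957, 0.903 to 1.01), and Slc7a11 had intervals that spanned 1. With each cell thinned to 1000 UMIs the log2 ratio of Gclm in this gate was -0.64.

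In Ly6c-high monocytes 3 of 9 members were past 1.5-fold higher and 1 was lower, beside 10.8% and 14.4% of all genes. Srxn1 was at 12.1 and 29.8 CPM (2.45-fold, 1.55 to 4.01) in the MI-vehicle and MI-SB225002 libraries, and Slc7a11 and Prdx1 were the other 2. Gclc was at 24.3 and 15.6 CPM (0.643, 0.418 to 0.987). In fibroblasts 0 of 8 members passed the fold in either direction, beside 11.3% and 15.1% of all genes.

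**Figure D4:**
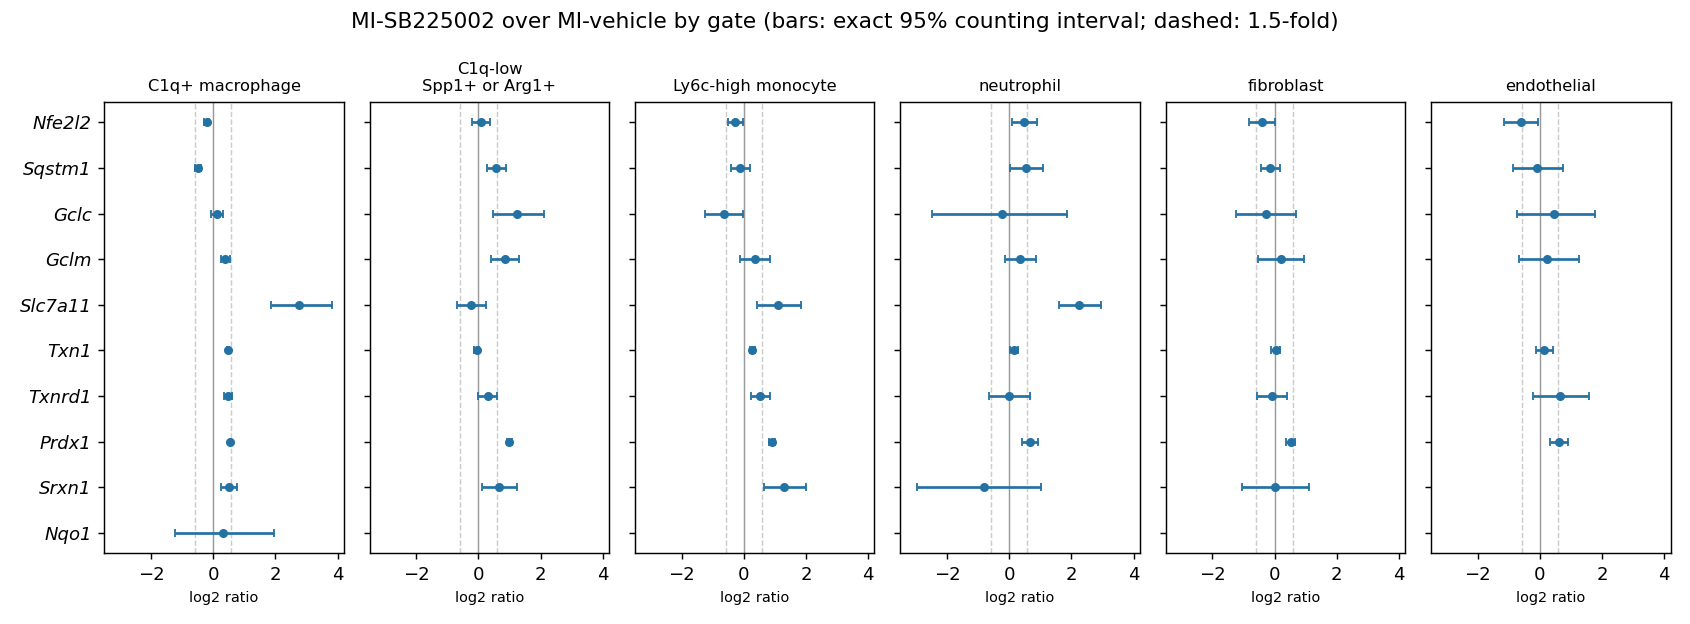
Ratio of MI-SB225002 to MI-vehicle for the members with at least 10 UMIs in 6 gates (panels, x axis in log2 units, with dashed lines at 1.5-fold and bars for the exact 95% counting interval). Prdx1 lies above a log2 ratio of 0 in each panel, Sqstm1 lies below 0 in the C1q+ gate and above 0 in the C1q-low Spp1+ or Arg1+ gate, and Nqo1 has enough UMIs in the C1q+ gate alone, with an interval that spans 0.

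Slc7a11 encodes the transport subunit of system xc-, which imports cystine for glutathione synthesis in exchange for glutamate, and its level differed widely between cell types. Pooled over libraries, it was at 56.4 CPM in the gate high in MHC class II, 55.5 CPM in the C1q-low Spp1+ or Arg1+ gate and 51.3 CPM in neutrophils, 3 levels whose intervals overlapped. Ly6c-high monocytes followed at 19.1 CPM, and C1q+ macrophages had 1.81 CPM. Within the MI-vehicle library the C1q-low Spp1+ or Arg1+ cells were at 61.6 CPM (64 UMIs) and the C1q+ cells at 0.650 CPM (11 UMIs), a ratio of 94.8 (49.6 to 199). In the MI-SB225002 library the 2 gates were at 52.5 CPM (111 UMIs) and 4.43 CPM (86 UMIs), a ratio of 11.9 (8.86 to 15.9).

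In neutrophils Slc7a11 was at 22.5 CPM (7 UMIs), 21.1 CPM (25 UMIs) and 99.8 CPM (92 UMIs) in the Sham-vehicle, MI-vehicle and MI-SB225002 libraries. The MI-SB225002 neutrophils stood 4.72-fold (3.01 to 7.67) above the MI-vehicle neutrophils, while MI-vehicle over Sham-vehicle was 0.938 (0.394 to 2.57). Of the 9 members with enough UMIs in this gate, Slc7a11 and Prdx1 were past 1.5-fold higher and Srxn1, on 9 and 4 UMIs, was lower, beside 18.8% and 12.6% of all genes. At least 1 Slc7a11 UMI was seen in 5 of 23, 14 of 96 and 52 of 155 neutrophils, or 21.7%, 14.6% and 33.5%, at median depths of 12411, 11380 and 5365 UMIs. With cells thinned to 1000 UMIs the shares were 0%, 4.17% and 7.24%. Fibroblasts, a type with little Slc7a11, had 2 of 77, 2 of 218 and 0 of 162 cells with a UMI.

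CXCR2 is a receptor of neutrophils. The study also reports it in S100a9+ Ly6c+ infiltrating monocytes, which it found mostly negative for Ly6G and with enhancer signal at Lcn2. Whether such cells fell into the neutrophil gate here, whose markers include S100a9, Lcn2 and Cxcr2, was not tested. The makeup of the neutrophil gate differed between the libraries. The early granule genes Ltf, Camp, Ngp and Lcn2 summed to 26802, 31175 and 23143 CPM, and the late genes Retnlg, Csf3r, Cxcr2 and Mmp8 to 12145, 8303 and 17728 CPM. The cells were therefore split by which of the 2 sums was larger, a split chosen after the data were seen. In cells with more early transcripts Slc7a11 was at 12.4, 16.1 and 55.2 CPM (17, 72 and 57 cells), and in those with more late transcripts at 58.4, 47.0 and 131 CPM (6, 24 and 98 cells). The level was higher in the late cells within each library, with overlapping intervals in the Sham-vehicle and MI-vehicle libraries. The MI-SB225002 library was the highest in both kinds of cell. In both kinds its interval lay above that of MI-vehicle and overlapped that of Sham-vehicle, which rests on 3 early and 4 late UMIs.

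**Figure D5:**
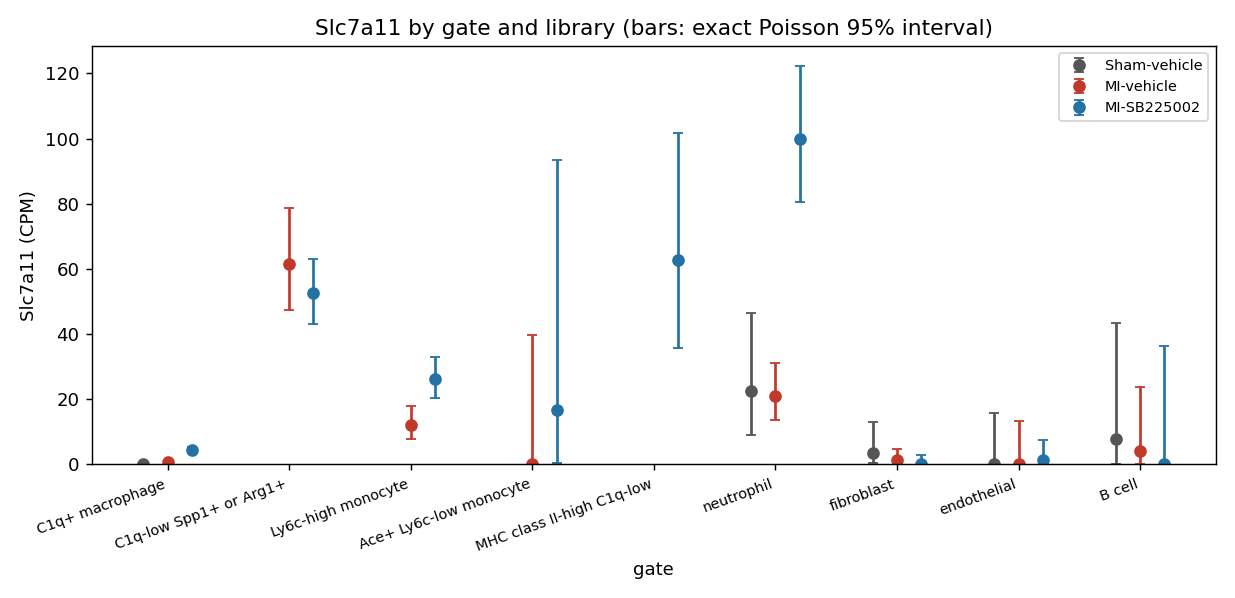
Slc7a11 level (y axis, CPM) in the gates (x axis), 1 point per library with its exact Poisson 95% interval, for gates with at least 20 cells in that library. Neutrophils of the MI-SB225002 library stand at 99.8 CPM, above the 22.5 and 21.1 CPM of the vehicle libraries, and the C1q-low Spp1+ or Arg1+ gate lies at 61.6 and 52.5 CPM in the 2 infarct libraries.

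In the C1q+ gate Slc7a11 was at 0.160, 0.650 and 4.43 CPM (3, 11 and 86 UMIs), and MI-SB225002 stood 6.81-fold (3.62 to 14.2) above MI-vehicle. Of the 86 UMIs, 33 came from the Arg1+ cells, which held 0 UMIs in the MI-vehicle library. Against a floor of 3 UMIs in that library the ratio was 4.09, and the exact interval of the ratio began at 3.14. The Arg1+ cells made up 4.37% of the gate in the MI-vehicle and 11.95% in the MI-SB225002 library. In the remaining C1q+ cells, outside the marker groups, there were 9 and 25 UMIs (2.57-fold, 1.16 to 6.26). The Spp1+ Gpnmb+ cells had 1 and 17 UMIs (6.94-fold, 1.09 to 290.0) and the Lyve1+ Folr2+ cells 1 and 6 UMIs (10.1-fold, 1.22 to 463). The UMIs of the whole gate came from 2, 7 and 53 cells, or 0.0990%, 0.300% and 1.81% of the gate, at median depths of 8730, 6370 and 5847 UMIs, and thinned to 1000 UMIs the shares were 0%, 0.0435% and 0.314%. Of 11 neutrophil markers, 10, 10 and 11 had UMIs in this gate, with Ly6g at 0 in the first and second library, and they summed to 298, 881 and 1335 CPM. The neutrophil markers S100a8 and S100a9 were also high in Ly6c-high monocytes, where they summed to 40511, 26457 and 22437 CPM. Per 1000 UMIs of S100a8 and S100a9, the C1q+ gate had 0.596, 0.808 and 3.58 UMIs of Slc7a11, and the neutrophil gate itself had 0.0826, 0.0869 and 0.490. The C1q+ cells thus held more Slc7a11 per S100a8 and S100a9 UMI than the neutrophils did, with intervals that overlapped in the Sham-vehicle library (0.123 to 1.74 and 0.0332 to 0.170) and did not in the others. In the MI-vehicle and MI-SB225002 libraries the Ly6c-high monocytes had 0.458 and 1.165, and the C1q-low Spp1+ or Arg1+ cells 32.05 and 61.67. From which cells the Slc7a11 UMIs of the C1q+ gate came was not tested. When the C1q-low Spp1+ or Arg1+ cells were counted with the C1q+ gate, a choice made after the data were seen, the log2 ratio of Slc7a11 between MI-SB225002 and MI-vehicle was 1.13.

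Other genes known to be regulated by NRF2 or to serve the same pathways gave a wider view. Of 51 such genes, 4 were past 1.5-fold higher and 1 was lower in the MI-vehicle than in the Sham-vehicle C1q+ gate, beside 10.3% and 7.07% of all genes. Between MI-SB225002 and MI-vehicle, 11 of the 51 were higher and 0 were lower, beside the 7.32% and 12.4% of all genes, and their median log2 ratio was 0.193 against -0.058. Of the genes at 50 CPM or more, 5 passed. These were Taldo1 of the pentose phosphate pathway (202 and 334 CPM in the MI-vehicle and MI-SB225002 libraries, 1.65-fold, 1.58 to 1.72) and Prdx6 (45.3 and 77.9 CPM, 1.72-fold, 1.57 to 1.88), with the glutathione reductase Gsr (1.60-fold, 1.45 to 1.77), the peroxiredoxin Prdx5 (1.52-fold, 1.46 to 1.57) and the ferritin light chain Ftl1 (1.51-fold, 1.5 to 1.53). None of these 5 passed within the Lyve1+ Folr2+ cells, where their ratios ran from 1.16 for Prdx6 to 1.47 for Taldo1. There 3 of the 47 pathway genes with enough UMIs were higher and 0 were lower, beside 8.35% and 11.5% of all genes, with a median log2 ratio of 0.248. In Ly6c-high monocytes 12 of 49 were higher and 5 lower (10.8% and 14.4% of all genes), in neutrophils 10 and 2 of 44 (18.8% and 12.6%), in fibroblasts 8 and 3 of 48 (11.3% and 15.1%) and in endothelial cells 16 and 7 of 43 (26.2% and 13.4%).

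By role, 5 of 12 glutathione genes, 2 of 6 NADPH genes, 2 of 8 thioredoxin and peroxiredoxin genes, 1 of 8 heme and iron genes and 1 of 10 others passed as higher. None of the 7 regulators, which include Keap1 and Bach1, passed in either direction, with ratios of 1.12 (1.01 to 1.24) for Keap1 and 0.943 (0.879 to 1.01) for Bach1. Hmox1, the heme oxygenase that is often read as an NRF2 target, was at 358 and 487 CPM (1.36-fold, 1.32 to 1.40). Of 7 genes of the ATF4 amino acid response, which also drives Slc7a11, 6 had enough UMIs and 2 were higher, Asns and Psat1, beside 7.32% of all genes.

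A list of 12 immediate early and heat shock genes, which respond to tissue digestion and sorting, also differed between the libraries. The study counts Fos and Jun as proinflammatory and reports them lower after CXCR2 inhibition in its aggregated mononuclear phagocytes. Whether handling or treatment lay behind the difference was not tested. Between MI-SB225002 and MI-vehicle in the C1q+ gate, 7 of 12 were past 1.5-fold lower and 0 were higher, beside 12.4% and 7.32% of all genes, with a median log2 ratio of -0.789. Fos was at 925 and 454 CPM (0.490, 0.478 to 0.503) and Jun at 684 and 373 CPM (0.546, 0.530 to 0.562). Past the same fold, 9 of 12 were lower in Ly6c-high monocytes (14.4% of all genes) and 9 of 12 in fibroblasts (15.1%). In neutrophils 5 of 12 were lower (12.6%), in endothelial cells 6 of 10 (13.4%), and 0 were higher in any of these gates. Of the 5 in neutrophils, Jun alone was at 50 CPM or more (339 and 215 CPM). Short of 1.5-fold, Fos (1.23-fold, 1.07 to 1.41), Junb (1.48-fold, 1.34 to 1.63) and Ier2 (1.37-fold, 1.175 to 1.59) were higher in neutrophils. Between MI-vehicle and Sham-vehicle 0 of the 12 passed in either direction in the C1q+ gate, beside 10.3% higher and 7.07% lower of all genes. The list then had a median log2 ratio of 0.851 in Ly6c-high monocytes (18 Sham-vehicle cells), 0.538 in neutrophils, 0.166 in endothelial cells and -0.184 in fibroblasts. Over all genes tested the medians were 0.143, 0.293, -0.026 and -0.082. The part of the difference between MI-SB225002 and MI-vehicle in the ratios of the members, such as the lower Sqstm1 and the higher Prdx1, was not tested.

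Over 19 sums of a gate and library with at least 30 cells each, the gene whose level followed Prdx1 most closely was Eif4a1 (Pearson r = 0.951 on log2 of CPM + 10), then Slc3a2 (0.917) and Anxa4 (0.915). Slc3a2 encodes the heavy chain that pairs with the Slc7a11 product. For Slc7a11 the closest were Clec4e (0.879), Trem1 (0.839) and Cd300lf (0.838), receptors of inflammatory myeloid cells. Among the members themselves, Prdx1 and Srxn1 were the closest pair (0.813), followed by Txn1 and Srxn1 (0.744), and Gclc and Txn1 were the farthest apart (-0.428). The sums of 1 library share its depth and handling, so these values are descriptions.

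Some UMIs could have been assigned to or from near-identical sequence. Transcripts of 2 Prdx1 pseudogenes and 1 Txn1 pseudogene match their parent at 95% or more over at least 200 bases, but they held 40 UMIs beside 95551 of Prdx1 and 15 beside 76195 of Txn1. Sqstm1 overlaps Mrnip and shares 583 identical bases with it, and Mrnip held 609 UMIs beside 10470 of Sqstm1. The longest annotated transcript of Slc7a11 holds a stretch that resembles the alpha tubulin genes (92.5% identity to Tuba1b over 585 bases, 93.4% to Tuba1a over 483, 93.6% to Tuba1c over 482 and 93.6% to Gm49450 over 483). Tuba1b was at 716, 538 and 778 CPM in the C1q+ gate of the 3 libraries, where Slc7a11 was at 0.160, 0.650 and 4.43 CPM. Whether UMIs of these genes were counted to Slc7a11 was not settled.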

How the data were processed

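The authors deposited whole-number UMI counts per gene symbol and barcode for each of 3 single-cell libraries (BMKGENE DG1000). The submitters' processing notes name mm10 and Seurat 4.1.0, and the aligner and annotation behind the counts are not given in the sources used here. Cells with 500 to 30000 UMIs, 500 to 5000 genes and a mitochondrial share under 10% were kept. These are the limits the study names, and they left only a few more cells than it reports after quality control. The study then clustered a smaller set of mononuclear phagocytes, a step not taken here. Depth was 29323567, 32498608 and 34235864 UMIs over all barcodes of the Sham-vehicle, MI-vehicle and MI-SB225002 libraries.

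Each cell was put in a gate when at least 3 to 5 markers of 1 list were present and they passed a minimum share of its UMIs, the minimum being set after the marker counts were seen. The C1q-low Spp1+ or Arg1+ gate was added after the data were seen. Gates were built here and are not the study's clusters. Doublets were not called, and cells with markers of more than 1 lineage were kept apart as mixed. UMIs were summed by gate and library, CPM were given exact Poisson 95% intervals, and ratios exact conditional intervals. A gene entered the counts past 1.5-fold when the compared libraries together gave it 10 UMIs or more, and each count is set beside the share of all genes. With 1 library per group no p-value was computed.

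All 10 members are named. Genes of the other lists are counted in full and named where past 1.5-fold at 50 CPM or more, and those named beside them (Keap1, Bach1, Hmox1, Asns, Psat1) were chosen after their values were seen. The members and the lists were chosen with earlier results of these data known. Ratios were recomputed with TMM factors (edgeR 4.0.16), DESeq2 1.42.0 size factors, other cell filters, cells thinned to 1000 UMIs and other weightings, and the ratio and its interval were tested on simulated data. Python 3.11.15, NumPy 2.4.6, SciPy 1.17.1 and R 4.3.3 were used.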

Additional observations from a re-analysis of the deposited data

Results flagged for a closer look

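The catalytic ligase subunit Gclc went in opposite directions between cell types in MI-SB225002 against MI-vehicle, which was not tested as a difference. Its log2 ratio was 1.24 in the C1q-low Spp1+ or Arg1+ gate (17 and 82 UMIs in the MI-vehicle and MI-SB225002 libraries), -0.64 in Ly6c-high monocytes (50 and 43 UMIs) and -1.90 in B cells (26 and 3 UMIs).

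Cells that entered no comparison also held members above their Sham-vehicle level. These cells had markers of more than 1 lineage (mixed) or met the limits of no gate (unassigned). Among mixed cells, which are led by neutrophil genes, the log2 ratio of Slc7a11 to Sham-vehicle was 1.98 in the MI-vehicle and 3.21 in the MI-SB225002 library. Prdx1 was at 0.64 in the mixed and 1.04 in the unassigned cells of the MI-SB225002 library. Txn1 was at 0.77 and 0.72 in the unassigned cells of the MI-vehicle and MI-SB225002 libraries.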

How the results depend on the processing

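No paired analysis was possible because each group had 1 library, and no library could be left out. In the C1q+ gate, the count of members past 1.5-fold higher in MI-vehicle over Sham-vehicle was 1 and came to 0 with a mitochondrial limit of 5%, cells thinned to 1000 UMIs, shared barcodes left out, or cells with 2 or more markers of a second lineage left out. The count lower was 1 and came to 0 with thinning, shared barcodes left out, sub-gates weighted to the MI-vehicle makeup, C1q-low Spp1+ or Arg1+ cells added, or a 2-fold threshold. The count higher in MI-SB225002 over MI-vehicle was 1 and came to 2 with TMM factors or no filter on cells, and to 3 with DESeq2 size factors, thinning, shared barcodes left out, second-lineage cells left out, the mean over cells, or the C1q-low cells added. The count of members highest outside the myeloid gates was 1 and came to 2 with the 5% limit, no filter, shared barcodes left out or the mean over cells, and to 3 with thinning. Of 538 values of single genes under an alternative, 469 moved by less than their counting interval and 67 by more, apart from 2 that are given next. The sign changed for 52, of which 2 had been past 1.5-fold. These, both with thinning, were Gclm in the C1q-low Spp1+ or Arg1+ gate (-0.64) and Sqstm1 in B cells (-0.48), on the log2 scale of MI-SB225002 over MI-vehicle. The cause was not tested. Thinning leaves few UMIs per gene. In the gates under 100 cells per library the counts limit every ratio, and Nqo1 had at most 12 UMIs in a gate and library.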
